A study of Homo sapiens with 6 samples.

Results

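The DNA damage response and repair genes described here were 57 genes picked by name, and all 57 were found by Ensembl identifier among the 30735 genes of each expression table. They comprised 9 genes of damage sensing, signalling and checkpoint control, 17 of homologous recombination, 7 of the Fanconi anaemia pathway, 7 of end joining, 3 of mismatch repair, 8 of base excision and single-strand break repair, and 6 of nucleotide excision repair. RNA sequencing had been performed on PANC-1, an established human cell line from a carcinoma of the pancreatic duct, and the study asked which genes change downstream of CD73, the surface enzyme that makes adenosine and is encoded by NT5E. The series held 6 samples, 3 transfected with CD73 siRNA and 3 with a negative control, all of them PANC-1 cells grown in DMEM with fetal bovine serum and transfected with a lipid reagent in serum-free medium. The labels name no DNA-damaging agent in either group. The knockdown is transient and the model is a single cell line. Titles numbered both groups 1 to 3, and nothing in the labels says what a shared number stands for, or whether the 3 knockdown samples had different siRNAs or were repeats of 1 siRNA, so their SD may cover either. The study describes them as separate knockdown experiments.

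DNA damage is sensed by the kinases ATM and ATR, which signal through checkpoint kinases and mark the chromatin around a break. Breaks of both strands are then mended by homologous recombination, which copies the sister chromatid, or by end joining, which ligates the ends. The Fanconi anaemia pathway unhooks crosslinks between strands. Mismatch repair corrects replication errors, base excision repair removes damaged bases, and nucleotide excision repair cuts out bulky lesions. Many of these genes are transcribed with the cell cycle, and pancreatic carcinomas with inherited defects in homologous recombination often respond to platinum drugs and PARP inhibitors.

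Values were RPKM, reads normalised to exon length and to the library total, and changes are differences of log2(RPKM + 1), CD73 siRNA minus negative control, from limma. The targeted gene was checked first. NT5E stood at 3.36, 6.85 and 8.22 RPKM in the CD73 knockdown samples and at 13.96, 13.87 and 17.14 RPKM in the controls. The groups did not overlap, and the mean of 6.14 ± 2.50 RPKM (SD, n = 3) was 41.0% of the control mean of 14.99 ± 1.86 RPKM (SD, n = 3). The log2 fold change was -1.23 (SE 0.26, limma adjusted p = 0.303, unadjusted p below 0.01), and the exact two-sided permutation test gave 0.1, the smallest p that 3 samples against 3 allow. Library totals, estimated from the size of 1 read in each table, lay between 15009113 and 16836209. Of 8 markers of duct cells and carcinoma lines, 7 were above 1 RPKM in all samples, while the keratin KRT7 was at most 0.107 RPKM, and KRT8, KRT18 and EGFR were lower after knockdown (log2 fold changes -1.27, -0.68 and -0.55, unadjusted p below 0.01 and no overlap for each). The summed level of the 8 markers was 414.5 to 500.1 RPKM after knockdown and 566.0 to 672.6 RPKM in the controls, and its part in the repair gene values was not tested. No leukocyte, endothelial, acinar or islet marker measured exceeded 0.077 RPKM. Of 5 fibroblast and stellate cell markers, COL1A1 and COL3A1 were above 1 RPKM in all samples, and their list summed to 17.5 to 31.0 RPKM after knockdown and 18.8 to 31.4 RPKM in the controls.

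CD73 knockdown left no repair gene past the limit taken from the study, an unadjusted p below 0.01. Of the 57 genes, 54 had at least 1 RPKM in at least 3 samples and were tested, and 0 of the 54 were called by limma, against 3.13% of all 12527 genes tested (228 higher and 164 lower). At an unadjusted p below 0.05 there were 2, the recombination gene XRCC3 (lower) and the end joining gene XRCC4 (higher), against 12.1% of all genes. A linear model per gene without moderation also called 0 at an unadjusted p below 0.01. At an adjusted p below 0.05 limma called 0 of the 54 and 0.00798% of all genes, and the adjusted p of the 54 genes ran from 0.396 to 0.994. The 54 differences were centred on 0, with a median log2 fold change of 0.00 against 0.01 for all genes, and 27 were above and 27 below 0. They ran from -0.30 for the checkpoint kinase CHEK1 to 0.45 for XRCC4. Leaving out control replicate 2 put 2 genes past the limit, the break scaffold MDC1 and XRCC4, both higher (3.70%, against 6.32% of all genes with the same samples). Leaving out any other single sample put 0 past the limit by limma, against 0.93% to 2.52% of all genes.

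The data also bound the size of a change in RPKM + 1 that could have been missed. For 49 of the 54 genes (90.7%) the 95% interval of the difference lay within a 1.5-fold change of RPKM + 1 in either direction, against 68.9% of all genes. For low genes the same bound allows a larger change in RPKM itself. The exceptions were CHEK1, MDC1, TP53BP1, PALB2 and XRCC4. Standard errors of the 54 genes were 0.08 to 0.21, with a median of 0.12 against 0.14 for all genes, and the reads behind a tested gene ran from 124 for XRCC4 to 26062 for PRKDC. The 2 groups of samples did not overlap for 6 of the 54 genes (11.1%), against 18.4% of all genes. ATR, XRCC3, MSH3 and UNG were lower in each knockdown sample than in each control, and RAD52 and XRCC1 were higher. A change of RNA per cell and a change in the share of cells in a given state cannot be told apart in these bulk samples.

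**Figure D1:**
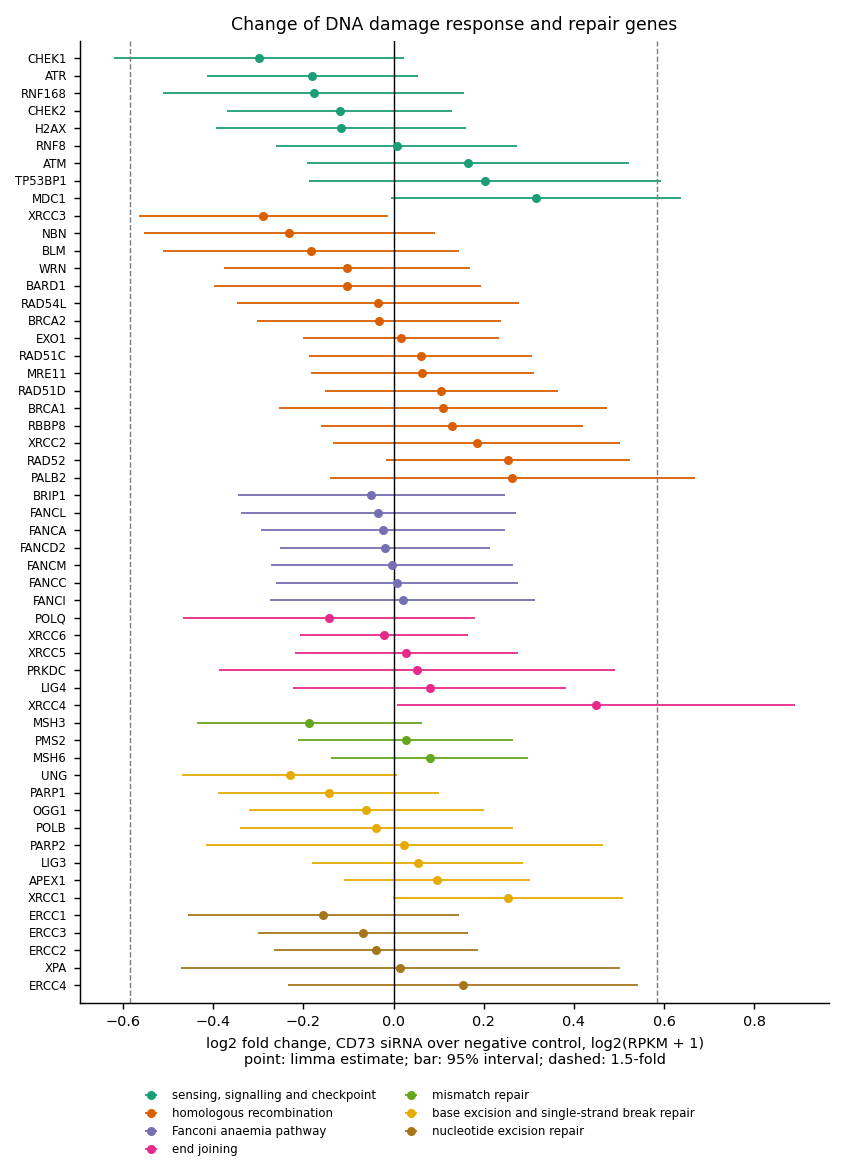
Log2 fold change (horizontal axis, log2(RPKM + 1), CD73 siRNA over negative control) of the 54 tested repair genes, one per line and coloured by pathway, with limma's 95% intervals and dashed lines at 1.5-fold. The points scatter on both sides of 0, from -0.30 (CHEK1) to 0.45 (XRCC4), and the 7 Fanconi anaemia genes hold the narrowest range of the pathways shown.

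Since samples with the same number deviated together from their group means across all genes (r = 0.20, 0.48 and 0.55 for numbers 1, 2 and 3), the comparison was also made with the replicate number as a block. With the block, 2 of the 54 genes (3.70%) passed the same limit, against 7.57% of all genes. They were CHEK1 (lower, adjusted p = 0.121) and XRCC4 (higher, adjusted p = 0.119), and neither passed over all 6 samples without the block.

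Among the 9 genes of sensing, signalling and checkpoint control the median log2 fold change was -0.12, and 5 were below 0 and 4 above. CHEK1, the kinase that ATR activates to hold the cell cycle when replication stalls, stood at 12.98, 17.61 and 14.18 RPKM after knockdown and at 17.04, 21.10 and 17.42 RPKM in the controls. The groups overlapped, because knockdown sample 2 was above control samples 1 and 3. Within the pairs of the same number the knockdown sample was the lower each time, by -0.37, -0.25 and -0.28 on the log2 scale. The difference over the groups was -0.30 (SE 0.14, adjusted p = 0.437) and passed the limit with the block. ATR itself, the kinase that answers single-stranded DNA, stood at 5.80, 5.64 and 5.46 RPKM after knockdown and at 6.53, 6.06 and 6.98 RPKM in the controls. These groups did not overlap, but the difference of -0.18 (SE 0.10, adjusted p = 0.502) did not pass the test. CHEK2, the checkpoint kinase downstream of ATM, was at -0.12, and ATM, which answers broken ends, was at 0.16 (adjusted p = 0.697).

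The genes that act on chromatin around a break differed in sign. MDC1, the scaffold that binds phosphorylated H2AX at a break, had the highest difference of this group. Its values were 16.83, 16.32 and 14.47 RPKM after knockdown and 11.43, 15.43 and 11.14 RPKM in the controls. Only control sample 2 reached the range of the knockdown samples, and the difference was 0.32 (SE 0.14, adjusted p = 0.420). Without control replicate 2 the difference of MDC1 was 0.46. TP53BP1, which binds the marked nucleosome and restrains resection, was at 0.20 (SE 0.17), the ubiquitin ligases RNF8 and RNF168, which build the mark that TP53BP1 reads, were at 0.01 and -0.18, and the histone H2AX was at -0.12. None of these passed the test.

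Homologous recombination was measured by 16 tested genes, with a median log2 fold change of 0.04, and 9 were above 0 and 7 below. XRCC3, which acts in strand exchange during recombination, had the lowest difference. It stood at 4.17, 4.54 and 5.06 RPKM after knockdown and at 6.27, 6.12 and 5.11 RPKM in the controls. The groups were separated by the small gap between knockdown sample 3 and control sample 3, and the difference was -0.29 (SE 0.12, adjusted p = 0.396). Of the exonic bases of XRCC3, 76.7% lie under exons of a gene on the other strand, and without strand information reads from the 2 strands cannot be told apart. RAD51C, RAD51D and XRCC2, which act at the same step, gave 0.06, 0.11 and 0.18, so these genes and XRCC3 did not share a sign.

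RAD52, an annealing protein that acts beside BRCA2, had values of 5.43, 5.76 and 5.60 RPKM after knockdown and 3.99, 5.24 and 4.44 RPKM in the controls. The groups did not overlap, and the difference was 0.25 (SE 0.12, adjusted p = 0.433). PALB2, which bridges BRCA1 and BRCA2, had the highest difference among the recombination genes, 0.26 (SE 0.18, adjusted p = 0.572). Its values were 9.002, 10.16 and 8.01 RPKM after knockdown and 5.96, 9.82 and 6.72 RPKM in the controls, and control sample 2 lay among the knockdown samples. BRCA1, BRCA2 and the BRCA1 partner BARD1 gave 0.11, -0.03 and -0.10. The resection genes MRE11, RBBP8 and EXO1 gave 0.06, 0.13 and 0.02, and NBN, which binds MRE11, gave -0.23 (adjusted p = 0.529). The helicases BLM and WRN gave -0.18 and -0.10, and the motor protein RAD54L gave -0.03. None of them passed the test.

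The 7 Fanconi anaemia genes picked held the narrowest range of the pathway groups of the 57 genes. Their differences lay between -0.05 for BRIP1, a helicase that binds BRCA1, and 0.02 for FANCI, which is ubiquitinated together with FANCD2 at a crosslink. BRIP1 stood at 5.07, 5.001 and 6.14 RPKM after knockdown and at 5.18, 5.21 and 6.51 RPKM in the controls. FANCI stood at 16.91, 16.65 and 18.91 RPKM after knockdown and at 14.80, 17.16 and 20.02 RPKM in the controls. For both genes number 3 was the highest sample of its group, and the treatment groups overlapped. The core complex genes FANCA, FANCC and FANCL, FANCD2 and the translocase FANCM gave differences of -0.02, 0.01, -0.03, -0.02 and 0.00. For all 7 the 95% interval lay within 1.5-fold on the scale of RPKM + 1, and their median absolute difference was 0.02 against 0.14 over all genes. The narrow range was not shared by 13 other tested genes of this pathway. Their differences ran from -0.33 to 0.27, with a median absolute difference of 0.15. Of these other genes 69.2% had intervals within 1.5-fold, against 68.9% of all genes.

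In end joining the differences of 6 tested genes ran from -0.14 for POLQ to 0.45 for XRCC4. XRCC5 and XRCC6, the Ku proteins that cap broken ends, were the most abundant of the 57 transcripts per length. XRCC6 lay between 226.96 and 235.32 RPKM in the 6 samples, and its difference was -0.02 (SE 0.08). XRCC5 lay between 118.54 and 143.19 RPKM, with a difference of 0.03 (SE 0.11). XRCC4, which holds the ligase LIG4 and lies on chromosome 5 from 83077498 to 83353787, stood at 5.35, 6.84 and 5.24 RPKM after knockdown and at 2.89, 5.41 and 3.88 RPKM in the controls. Control sample 2 overlapped the knockdown samples by a small margin, and within the pairs the knockdown sample was the higher each time, by 0.71, 0.29 and 0.35 on the log2 scale. The difference of 0.45 (SE 0.19, adjusted p = 0.402) came to 1.37-fold on the scale of RPKM + 1. It was the least deeply covered of the tested repair genes, with 124 to 288 reads. Without control replicate 2 its difference was 0.64.

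LIG4 itself was at 0.08 (adjusted p = 0.842). POLQ, the polymerase of end joining at short homologies, had the lowest difference among end joining genes, -0.14 (SE 0.14, adjusted p = 0.709). Its values were 7.99, 7.40 and 8.79 RPKM after knockdown and 9.74, 7.27 and 10.20 RPKM in the controls, where sample 2 was the lowest in each group. PRKDC, the catalytic subunit of the kinase that Ku recruits, was at 0.05 (SE 0.19), and its samples differed mainly by number, as described further on.

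Mismatch repair was represented by MSH3, MSH6 and PMS2, and the MSH genes had opposite signs. MSH3, which recognises larger loops, stood at 4.33, 5.34 and 4.99 RPKM after knockdown and at 5.60, 5.77 and 5.69 RPKM in the controls. MSH6, which recognises base mismatches, stood at 25.56, 22.78 and 23.07 RPKM after knockdown and at 22.01, 23.35 and 21.99 RPKM in the controls. The MSH3 groups did not overlap and the MSH6 groups did, with differences of -0.19 (SE 0.11, adjusted p = 0.512) and 0.08 (SE 0.10, adjusted p = 0.763), neither past the test. PMS2, the endonuclease partner, gave 0.03, a value that is uncertain because near-identical pseudogene copies can share its reads.

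In base excision and single-strand break repair the differences ran from -0.23 for UNG to 0.25 for XRCC1. UNG, the glycosylase that removes uracil from DNA, stood at 42.19, 50.07 and 50.44 RPKM after knockdown and at 53.82, 57.55 and 56.04 RPKM in the controls. XRCC1, the scaffold that gathers the enzymes at a nick, stood at 5.88, 6.47 and 6.30 RPKM after knockdown and at 4.85, 5.68 and 4.66 RPKM in the controls. Both genes had groups without overlap, in opposite directions, and neither passed the test (UNG SE 0.10, adjusted p = 0.425, and XRCC1 SE 0.11, adjusted p = 0.413). LIG3, the ligase that XRCC1 stabilises, was at 0.05. The nick sensors PARP1 and PARP2, targets of PARP inhibitors, were at -0.14 and 0.02, the oxidised guanine glycosylase OGG1 at -0.06, the endonuclease APEX1 at 0.10 and the gap-filling polymerase POLB at -0.04.

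Among the 5 tested genes of nucleotide excision repair the median difference was -0.04. ERCC1, partner of the nuclease ERCC4, had the lowest difference and ERCC4 the highest, -0.16 (SE 0.13, adjusted p = 0.658) and 0.15 (SE 0.17, adjusted p = 0.738). ERCC1 stood at 9.54, 10.04 and 11.31 RPKM after knockdown and at 10.25, 10.97 and 13.71 RPKM in the controls. ERCC4 stood at 4.68, 6.49 and 5.22 RPKM after knockdown and at 3.89, 6.07 and 4.54 RPKM in the controls. The treatment groups of both genes overlapped, although the 2 proteins work as a pair. The helicases of the repair complex, ERCC2 and ERCC3, gave -0.04 and -0.07, and the damage-binding protein XPA gave 0.01 (SE 0.21), the widest error of the tested genes.

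**Figure D2:**
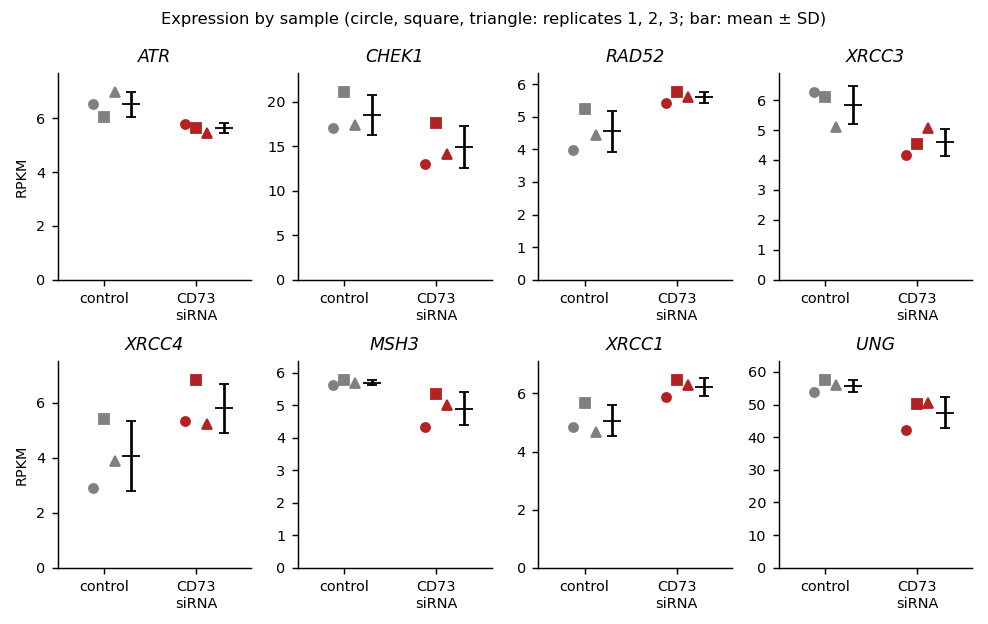
RPKM in each sample (vertical axes from 0) for the 6 repair genes whose groups did not overlap and for CHEK1 and XRCC4, with circles, squares and triangles for replicates 1, 2 and 3 and bars for mean ± SD. In CHEK1 and XRCC4 replicate 2 is the highest of both groups, and the knockdown sample lies on the same side of the control of its own number for all 3 numbers.

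By replicate number, 4 of the 54 genes (7.41%) passed an unadjusted p below 0.01 in limma's F test, against 9.27% of all genes, and 1 of them passed an adjusted p of 0.05, against 1.82% of all genes. They were PRKDC (adjusted p = 0.0496), PARP2 (adjusted p = 0.0749), TP53BP1 (adjusted p = 0.0963) and ERCC4 (adjusted p = 0.104). PRKDC stood at 67.95, 80.91 and 100.41 RPKM in knockdown samples 1, 2 and 3 and at 63.04, 79.90 and 98.18 RPKM in control samples 1, 2 and 3. Each knockdown sample was thus close to the control of its number, and samples of 1 group differed far more than the groups did. TP53BP1 stood at 9.12, 8.58 and 11.69 RPKM after knockdown and at 7.19, 7.505 and 10.61 RPKM in the controls, with number 3 the highest in both. PARP2 stood at 9.14, 12.04 and 8.43 RPKM after knockdown and at 8.30, 12.80 and 8.25 RPKM in the controls, with number 2 the highest in both, as it was for ERCC4.

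**Figure D3:**
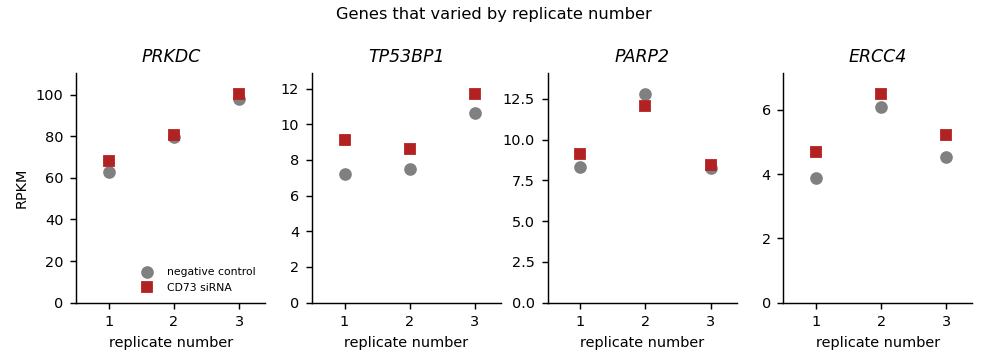
RPKM (vertical axes from 0) by replicate number for the 4 repair genes that passed the limit by number, negative control as grey circles and CD73 siRNA as red squares. In PRKDC the 3 numbers are set apart, with 98.18 and 100.41 RPKM for number 3, while in the other genes 1 number (3 in TP53BP1, 2 in PARP2 and ERCC4) lies above the remaining numbers, which overlap.

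The shared numbering reached beyond these 4 genes. In 37 of the 54 (68.5%) the same number was the highest sample of both groups, against 53.8% of all genes, and number 3 held that place in 17 genes, number 2 in 16 and number 1 in 4. Homologous recombination had this property in 13 of 16 genes and the Fanconi anaemia pathway in 3 of 7. Control sample 1 was the lowest of the 6 samples in 21 of the 54 genes (38.9%), against 26.1% of all genes. These 21 included 9 of the 16 recombination genes and 3 of the 6 end joining genes. On the log2 scale control sample 1 lay at -0.13 from the mean of the 6 samples over the recombination genes and at -0.16 over the end joining genes, against -0.02 over all genes. In the other pathways it lay between -0.06 (Fanconi anaemia) and -0.01 (mismatch repair). The low value was not particular to these pathways. Control sample 1 lay at -0.11 over the 101 other tested repair genes and at -0.11 over the 43 cell cycle genes, both described further on. Within pair 1 the median difference of the recombination genes was 0.08, against 0.00 in pair 2 and 0.00 in pair 3. The pair 1 median was 0.02 over all genes, 0.11 for end joining and 0.09 for base excision. It was -0.08 for signalling and -0.03 for nucleotide excision repair.

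Library features moved with the number as well. The mitochondrial share of RPKM was 19.5% and 22.1% in samples numbered 1, 15.4% and 16.3% in those numbered 2, and 17.3% and 19.4% in those numbered 3, knockdown before control. Control sample 1 had the highest share. Exon length moved with the contrast of number 3 against number 2. Of the 19 tested repair genes with under 5000 bases of merged exon, 4 were higher in number 3, with a median difference of -0.14, and of the 9 above 10000 bases, 7 were higher, with a median of 0.07. Over all genes the medians of the same classes were -0.05 and 0.04. The part of either feature in the values by number was not tested.

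**Figure D4:**
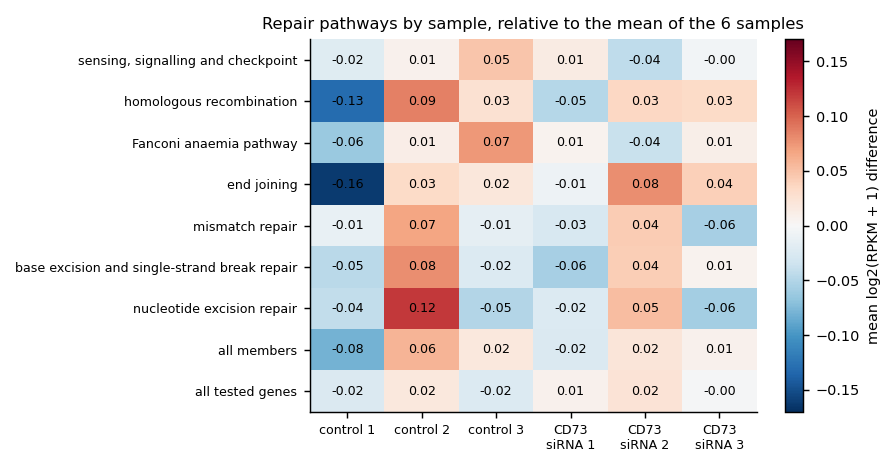
Mean log2(RPKM + 1) of the tested genes of each repair pathway (rows) in each sample (columns), relative to the mean of the 6 samples, blue below and red above. Among the pathways control sample 1 is the lowest for homologous recombination (-0.13), end joining (-0.16) and the Fanconi anaemia pathway (-0.06). No row separates the 3 controls from the 3 knockdown samples.

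The level of the 57 genes in these cells spanned a wide range per length. After XRCC6 and XRCC5, at means of 230.0 and 132.1 RPKM over the 6 samples, came H2AX at 110.3, APEX1 at 91.6 and PRKDC at 81.7 RPKM, so that the Ku proteins and their kinase were all among the 5 highest. XRCC5 and H2AX overlapped in their ranges over samples, whereas XRCC6 lay above both. At the low end of the tested genes stood FANCM at 2.59 and RAD51D at 2.58 RPKM, which overlapped as well.

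The remaining 3 genes were not tested. RAD50, the ATPase that forms a complex with MRE11 and NBN, had 0.64, 0.97 and 1.30 RPKM after knockdown and 0.52, 0.92 and 1.28 RPKM in the controls, from 82 to 214 reads. NHEJ1, a partner of XRCC4 in end joining, had 0.04 to 0.17 RPKM, from 2 to 8 reads. ERCC5, a nuclease of nucleotide excision repair, had 0.07 to 0.19 RPKM. RAD50 thus stood more than 10-fold below its partners MRE11 and NBN (10.6 and 23.4 RPKM), and its samples lined up by number.

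These 3 genes shared a feature of the annotation. In GENCODE release 29 (GRCh38), RAD50 lies on chromosome 5 from 132556019 to 132646344 (forward strand), and 79.7% of its exonic bases are also exon of AC116366.3, a gene on the same strand. NHEJ1, on chromosome 2 from 219075317 to 219160865 (reverse strand), shares 65.4% with AC068946.1, and ERCC5, on chromosome 13 from 102807146 to 102876001 (forward strand), shares 63.2% with the readthrough gene BIVM-ERCC5. No other of the 57 genes shared 50% or more, a division chosen after the values were seen, and the means of the other 54 ran from 2.58 to 230.0 RPKM. Counting tools of the kind named in the submitters' notes can leave out reads that fall on more than 1 gene, but the setting and the annotation used are not given in the sources used here. AC068946.1 itself was listed at 0.03 to 0.15 RPKM. The part of overlapping annotation in the 3 low values was not tested, and the values are therefore uncertain as levels of these transcripts.

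**Figure D5:**
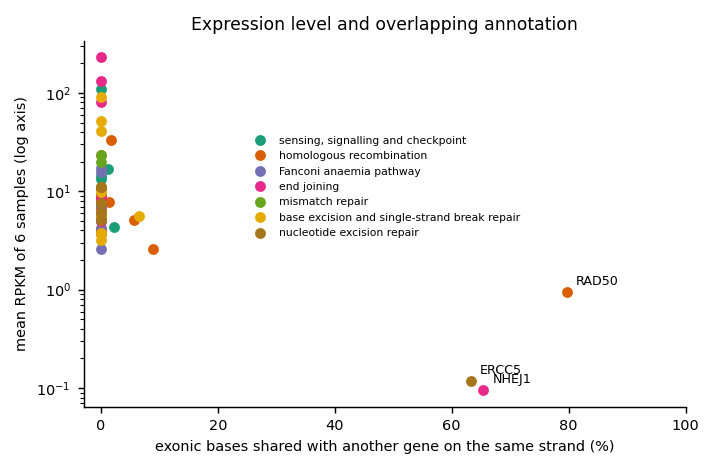
Mean RPKM over the 6 samples (log vertical axis) against the percentage of exonic bases shared with another gene on the same strand (horizontal axis) for the 57 repair genes, coloured by pathway. RAD50, NHEJ1 and ERCC5, at 63.2% to 79.7%, are the 3 lowest points, and the other 54 genes lie at 2.58 RPKM or above.

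Many repair genes carry a site for E2F, the factor family that drives transcription at the start of S phase, and the promoters were read for its letters. The motif was searched as TTTCCCGC, TTTCGCGC, TTTGCCGC or TTTGGCGC on both strands in RefSeq promoters of GRCh38.p14, from 250 bases before to 50 bases after each gene start, and overlapping matches were kept. Windows were at hand for 51 of the 57 genes. The letters were in 14.9% of the repair genes' 74 windows and in 3.31% of all 35116 windows of this length, and 10 of the 51 genes (19.6%) had at least 1 match, against 6.996% of all tested genes with a window. The 5 matches below are shown because they come from the MSH and UNG genes with differences in opposite directions and from EXO1 and FANCD2, which lay near 0. Capitals mark the motif or its reverse complement, and each stretch is written 5′ to 3′ on the strand of its gene. In MSH3 a further match on the opposite strand overlaps the one shown and is not in capitals.
UNG: gggaggtttTTTGCCGCgaaaagacc
MSH3: gcggtcaagTTTGGCGCgaaattgtg
MSH6: ccccccagaTTTCCCGCcagcaggag
EXO1: aggtcagccTTTCGCGCgctgtgtag
FANCD2: tcgggcctgGCGGGAAAgtcgaaaac

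On the forward strand these stretches lie at chr12:109098100-109098125 (UNG), chr5:80654536-80654561 (MSH3), chr2:47783139-47783164 (MSH6), chr1:241848199-241848224 (EXO1) and chr3:10026426-10026451 (FANCD2). A match in letters is a description and does not show that a factor binds. The 10 tested repair genes with a match had a median log2 fold change of -0.01 and the 38 tested genes with a window and no match a median of 0.00. The 5 genes shown thus shared the letters while their differences ran from -0.23 to 0.08.

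The cell cycle genes gave the setting for these values. Of 43 tested, 3 passed the limit (6.98%, against 3.13% of all genes). They were the G1/S transcription factor E2F1 (0.46, adjusted p = 0.303) and the mitotic survivin gene BIRC5 (0.48, adjusted p = 0.319), both higher, and the spindle motor KIF11 (-0.55, adjusted p = 0.303), lower. The median was 0.00 over 23 genes of S phase and E2F targets and 0.06 over 20 genes of G2 and M phase. With the replicate block 2 of the 43 passed (4.65%, against 7.57% of all genes), E2F1 and KIF11, and BIRC5 did not. Without CD73 siRNA replicate 1 or 3, or control replicate 1 or 3, 1 of the 43 passed, a gene that was lower. Of 101 other tested repair genes, 3 passed, all higher, which is 2.97% against the 3.13% of all genes. The 101 were genes of the same pathways and 14 of damage tolerance and direct reversal, a class outside those pathways. Of the 3 that passed, 1, SMARCAL1, came from that class. ETAA1, an activator of ATR, stood at 12.79, 11.86 and 10.48 RPKM after knockdown and at 6.05, 9.31 and 8.05 RPKM in the controls (0.54, SE 0.16, adjusted p = 0.307). SHLD2, a shieldin subunit that acts downstream of TP53BP1, stood at 27.83, 23.36 and 27.40 RPKM after knockdown and at 10.69, 18.17 and 16.76 RPKM in the controls (0.78, SE 0.19, adjusted p = 0.303). SMARCAL1, a translocase that remodels stalled forks, stood at 11.42, 11.34 and 9.87 RPKM after knockdown and at 7.31, 9.23 and 6.69 RPKM in the controls (0.45, SE 0.13, adjusted p = 0.315). In these 3 genes the groups did not overlap, and SHLD2 has pseudogene copies that can share its reads. With the replicate block 9 of the 101 passed (8.91%, against the 7.57% of all genes given above). Leaving out CD73 siRNA replicate 1, CD73 siRNA replicate 2 or control replicate 1 gave 0, 1 and 1 calls by limma, and leaving out control replicate 2 gave 9 (8.91%, against 6.32% of all genes). By pathway, the highest median of these other genes was 0.15, over 16 of nucleotide excision repair, with 12 above 0. None of the 16 passed the limit without the block, and 3 did with it (18.75%, against 7.57% of all genes), all higher. At an unadjusted limma p below 0.05 without the block there were 5 (31.25%, against 12.1% of all genes), all higher. Groups did not overlap for 5 (31.25%, against 18.4%), also all higher. Control sample 1 lay at -0.35 over the 16.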

How the data were processed

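The deposited values are 1 number per gene and sample, read here as RPKM. The authors' unit, annotation and strand setting are not given in the sources used here, and the submitters' processing notes name bcl2fastq, Bowtie2 2.2.3, HTSeq 0.6.0 and hg38 without roles. Multiplied by merged exon length in GENCODE release 29, 96.1% to 96.3% of low values per sample fell within 0.1 of a whole number of reads, which gave the library totals. Of the identifiers, 132 were absent from that release.

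Genes that reached 1 RPKM in 3 or more samples were compared on log2(RPKM + 1) with limma 3.58.1 (lmFit, eBayes with trend, R 4.3.3) and Benjamini-Hochberg adjustment over all genes tested. This scale understates changes of low genes. The limit was an unadjusted p of 0.01, after the study. Samples were paired by number for the block because every same-number correlation of deviations exceeded 0.1. The pairing was thus read from the same values that the block was fitted to, and no label gives its source. The p-values with the block depend on this choice. The study describes its knockdown results as separate experiments, while the labels do not say how samples were repeated. If any samples were technical repeats, p-values measure only their spread. Intervals cover the spread between samples.

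The scripts were tested on simulated data. The members and gene lists were chosen with earlier results of these data known. Values in each sample are given for members whose groups did not overlap, that passed by treatment or number, or that had the highest or lowest difference of their pathway. Other settings tried were median ratio scaling, a pseudocount of 0.1, testing low genes too, no trend, no moderation, the replicate block and leaving out each sample.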

Additional observations from a re-analysis of the deposited data

How the results depend on the processing

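No repair gene passed the limit of 0.01 under a pseudocount of 0.1, no filter, median ratio scaling, no trend or no moderation, and 2 did with the replicate block, CHEK1 and XRCC4, while the block changed no other call among the repair genes. The block also gave 948 genes over all tested, where 392 were called without it, and 9 other repair genes. Without moderation 216 genes, 1 other repair gene and 1 cell cycle gene were called, and NT5E (-1.23) was no longer past the limit. Leaving out each sample in turn gave 116 genes (without CD73 siRNA replicate 1) to 792 (without negative control replicate 2), with 188 and 258 without control replicates 1 and 3, and 0 to 2 repair genes, 0 to 9 other repair genes, 1 to 4 cell cycle genes and -1.44 to -0.90 for NT5E. Without control replicate 2 the 2 repair genes were MDC1 and XRCC4. Of the 19 repair genes whose values were given in each sample and refitted this way, directions turned for FANCI (-0.082 to 0.124), BRIP1 (-0.130 to 0.043), PRKDC (-0.11 to 0.21) and PARP2 (-0.11 to 0.22), all near 0. Repair genes past the limit by number came to 2 without a trend (PRKDC and PARP2), to NBN, PRKDC and PARP2 without the filter, to TP53BP1, PRKDC and PARP2 with median ratio scaling, and to BARD1, NBN, FANCM, BRIP1 and PRKDC without moderation, and the adjusted p of PRKDC ran from 0.0486 to 0.35. The cause of these shifts was not tested. With 3 samples a group, changes beyond 1.5-fold in RPKM + 1 lay within the 95% intervals of 5 repair genes, and for low genes larger changes in RPKM remain possible. RAD50, NHEJ1 and ERCC5 did not reach 1 RPKM in 3 samples and so had no test in the main comparison.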
